A study of Mus musculus with 20 samples.

Results

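The lysosomal hydrolases and membrane proteins described here are 38 genes that were chosen by name for their function, cathepsins left out. The choice was made with earlier results of these data known. The genes are 11 hydrolases of glycans, 6 genes of sulfatases and their activator, and 8 lipid hydrolases and lipid cofactors. The others are 4 hydrolases of proteins and phosphates with progranulin, and 9 proteins of the lysosomal membrane. All 38 were found among the 37561 genes that the tables share, and all 38 passed the filter on low values, which left 13608 genes for testing. RNA-seq had been carried out on ESD3 cells, a mouse embryonic stem cell line of strain 129s2/SvPas kept on mouse embryo fibroblast feeders, while they differentiated as spherical neural masses (SNMs) toward dopaminergic neurons. The study asked how loss of HPRT, the purine salvage enzyme missing in Lesch-Nyhan disease, changes this differentiation. The Control line carried an shRNA against luciferase and the HPRT knockdown line an shRNA against HPRT. Both lines had received their shRNA by a viral vector (retroviral per the labels, lentiviral per the methods) and had been selected with puromycin, both were cultured on feeders before differentiation, and per the methods the hairpin had been designed against the human HPRT gene. Collections of each line were made on every day up to day 4 and then at intervals of 2 days, on days 6 to 14, and there was 1 library per line and day, made from RNAs pooled at that time point. The lines were made a single time each, and the tests below therefore compare these 2 lines, with p-values that measure the spread between days of collection and not between cultures.

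Lysosomes degrade glycans, lipids, proteins and nucleic acids that arrive by endocytosis and autophagy. Soluble hydrolases reach the lysosome mostly through mannose 6-phosphate receptors and work in sequence, so that the loss of a single enzyme lets its substrate pile up; many such storage diseases affect the brain. Highly glycosylated membrane proteins line the lysosome, and transporters and channels in the same membrane export the products. Many lysosomal genes carry an E-box in the promoter, the core of the CLEAR element (coordinated lysosomal expression and regulation), which factors of the TFEB and MITF family are known to bind.

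The promoter letters of these genes are shown as a description, since many lysosomal genes carry the E-box named above. The members were chosen as lysosomal genes, and a relation of the E-box to the difference between the lines was not tested. Promoter windows from RefSeq (build GRCm38.p6, 250 bases before to 50 bases after each start) were matched for 33 of the 38 members, with 36 windows in all; Aga, Asah1, Galns, Hgsnat and Npc1 had no entry. The hexamer CACGTG and the longer TCACGTGA, which contains it, were searched, and since both read the same on either strand, both strands were covered. CACGTG was in 10 of the 36 windows (27.8%), against 9.71% of 13587 windows of tested genes and 7.15% of all 32851 windows. TCACGTGA was in 4 of the 36 windows (11.1%), against 1.77% and 0.974%. A match is a description of the letters and does not show that a factor binds there. The 10 members with a match follow, from 25 bases before the first match to 25 bases after the last, with no base at or after the start or outside the window, and with the matches in capitals.
Sumf1: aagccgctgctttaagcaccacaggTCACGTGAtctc
Cln3: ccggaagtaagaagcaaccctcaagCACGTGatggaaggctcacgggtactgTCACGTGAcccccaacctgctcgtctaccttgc
Mcoln1: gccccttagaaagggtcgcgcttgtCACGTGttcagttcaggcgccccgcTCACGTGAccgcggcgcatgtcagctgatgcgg
Gla: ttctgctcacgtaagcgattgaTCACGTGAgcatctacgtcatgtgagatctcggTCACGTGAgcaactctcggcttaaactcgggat
Lamp1: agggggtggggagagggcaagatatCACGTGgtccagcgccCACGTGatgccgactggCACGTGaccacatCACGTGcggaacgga
Naglu: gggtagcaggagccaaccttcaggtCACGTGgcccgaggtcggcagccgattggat
Sgsh: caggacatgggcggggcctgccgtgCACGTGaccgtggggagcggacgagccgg
Arsa: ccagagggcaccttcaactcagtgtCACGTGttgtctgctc
Gaa: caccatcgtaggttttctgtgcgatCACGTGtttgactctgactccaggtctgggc
Glb1: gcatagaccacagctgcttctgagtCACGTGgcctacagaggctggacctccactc
The stretches lie at chr6:108185584-108185620 (minus strand) for Sumf1, chr7:126583326-126583410 (minus) for Cln3, chr8:3500423-3500505 (plus) for Mcoln1, chrX:134601168-134601255 (minus) for Gla, chr8:13159075-13159160 (plus) for Lamp1, chr11:101069996-101070051 (plus) for Naglu, chr11:119355511-119355564 (minus) for Sgsh, chr15:89477425-89477465 (minus) for Arsa, chr11:119267798-119267853 (plus) for Gaa and chr9:114401005-114401060 (plus) for Glb1. Lamp1 held 4 matches, the most of any member, beginning 61, 45, 28 and 15 bases before the start. Cln3, Gla and Mcoln1 held 2 each. In Sumf1 the single match began 12 bases before the start.

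The values are log2 ratios of the HPRT knockdown over the Control library of the same day, and errors are SDs over the 9 days without day 6, which the study left out of its pathway analysis as discrepant; values of day 6 are given separately. The tables hold ratios and no read totals, and the methods give only an average number of reads, so the depth of each library is unknown. The relative size factors of paired libraries, recovered from low values, ranged from 0.571 (knockdown over Control) on day 3 to 1.47 on day 0. Of the 38 members, 33 had a typical level of at least 256 normalized reads. The other 5 (Idua, Aga, Sgsh, Galns and Gla) had between 16 and 256, where a ratio is measured with the least precision. Hprt, the targeted gene, was measured first: its ratio was -2.53, -2.70, -3.90, -4.56 and -4.94 on days 0 to 4, -3.42 on day 6, and -4.38, -3.79, -4.21 and -5.00 on days 8 to 14. Thus Hprt was lower in the library labelled knockdown on each of the 10 days. Of the marker lists, 10 of 10 neural progenitor, 13 of 15 neuron and 10 of 10 pluripotency genes passed the filter. The same held for 10 of 10 astrocyte, 14 of 15 oligodendrocyte, 15 of 15 fibroblast and 8 of 15 endoderm genes. Passing the filter therefore does not tell these cell types apart.

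The main comparison asked which members differed between the lines throughout the course. Lysosomal transcripts were higher in the HPRT knockdown in each of the 5 groups. By limma with Benjamini-Hochberg adjustment over all 13608 genes, 31 of the 38 members (81.6%) were higher in the knockdown, where 26.2% of all genes were, and 1 member, Manba, was lower, where 26.3% of all genes were. The median of the members' mean ratios was 0.60, a 1.52-fold difference, and the median of all genes was 0.0056. A difference of at least 1.5-fold that also passed the test was found for 20 members (52.6%) and for 13.8% of all genes. The ratio was above 0 on 9 of 9 days for 26 members (68.4%) and for 14.1% of all genes. The members lie on 17 chromosomes. The RNA came from whole cultures, in which more or fewer cells of a type and more or less RNA per cell cannot be told apart.

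**Figure D1:**
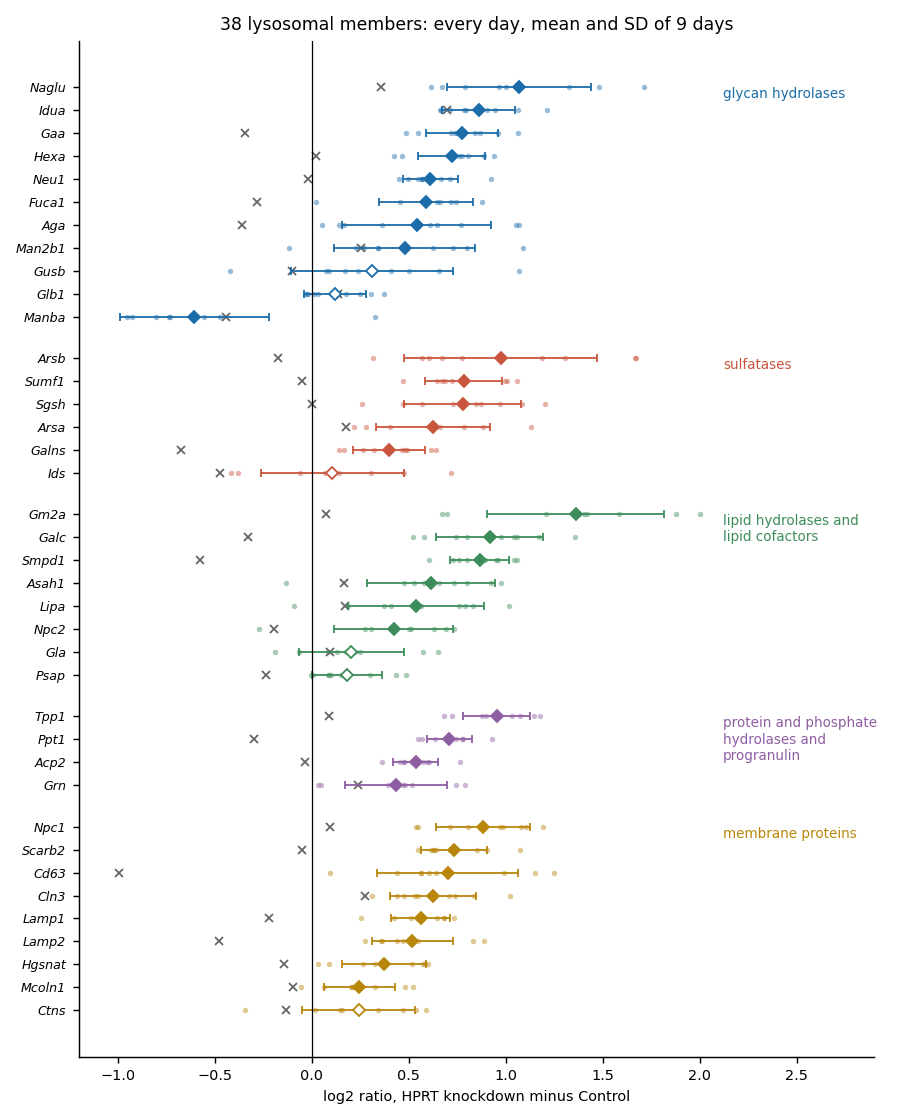
Log2 ratios (HPRT knockdown minus Control, x axis) of the 38 members, grouped and colored by role; dots are single days, crosses are day 6, and diamonds with bars are the mean and SD of the 9 days without day 6, filled where limma passed the threshold and open where it did not. The filled diamonds lie to the right of 0 for 31 members and to the left for Manba, and most crosses lie to the left of the dots of their gene.

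Among the glycan hydrolases 8 of 11 were higher, 1 was lower and 2 did not pass the test, with a median ratio of 0.59. Naglu (Gene ID 27419, NCBIM37 chromosome 11, 100931326 to 100938986, plus strand), the alpha-N-acetylglucosaminidase of heparan sulfate breakdown, had the largest mean of the group. Its ratio was 0.62, 0.96, 0.79, 1.00 and 0.67 on days 0 to 4, 0.36 on day 6, and 1.06, 1.33, 1.48 and 1.71 on days 8 to 14. All of these days lay above 0, with the highest values at the end of the course and the lowest on day 6. It averaged 1.07 ± 0.37 (SD, n = 9 days), or 2.10-fold, with a limma adjusted p of 0.000137.

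Idua, which removes iduronic acid from heparan and dermatan sulfate, followed at 0.86 ± 0.19, and Gaa, the acid alpha-glucosidase of glycogen, at 0.78 ± 0.18. Hexa, the alpha subunit of beta-hexosaminidase, stood at 0.72 ± 0.17 and the sialidase Neu1 at 0.61 ± 0.14. The fucosidase Fuca1 was at 0.59 ± 0.24, the aspartylglucosaminidase Aga at 0.54 ± 0.38 and the alpha-mannosidase Man2b1 at 0.48 ± 0.36. These 7 genes passed with limma adjusted p-values between 3.89e-05 (Idua) and 0.00731 (Man2b1). In fits of the early or the late days alone, alternatives chosen after seeing the data, the mean of Man2b1 over days 0 to 4 was 0.21 and did not pass (limma adjusted p 0.132), nor did that of Aga over days 8 to 14 alone, at 0.41 (limma adjusted p 0.166). The beta-glucuronidase Gusb, at 0.31 ± 0.42 (limma adjusted p 0.0752), and the beta-galactosidase Glb1, at 0.12 ± 0.16 (limma adjusted p 0.159), did not pass. Gusb passed without day 0, at 0.40 (limma adjusted p 0.0180), and over days 8 to 14 alone, at 0.66 (limma adjusted p 0.0279), and its values differed by up to 0.199 between the tables that share a library, the most of any member.

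Manba (Gene ID 110173, chromosome 3, 135148575 to 135234368, plus strand), the beta-mannosidase that cleaves the last disaccharide of N-glycan breakdown, was the single member that was lower. Its ratio was -0.47, -0.61, -0.80, -0.95 and -0.55 on days 0 to 4, -0.44 on day 6, and -0.73, -0.93, -0.73 and 0.32 on days 8 to 14. It lay below 0 until day 12 and above 0 on day 14. It averaged -0.61 ± 0.38 (SD, n = 9 days), 1.52-fold lower, with a limma adjusted p of 0.00274. Over days 8 to 14 alone the mean of -0.52 did not pass (limma adjusted p 0.157). Between day 12 and day 14 the joined Control course of Manba went from 0.98 to -0.12 relative to day 0, while the knockdown course, relative to its own day 0, went from 0.78 to 0.70. The turn on day 14 therefore came with a lower value of the Control library.

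Of the 6 genes of the sulfatase group, which includes the activator Sumf1, 5 were higher and 1 did not pass, with a median of 0.70. Arsb (Gene ID 11881, chromosome 13, 94541634 to 94712971, plus strand), which desulfates dermatan and chondroitin sulfate, had a ratio of 0.31, 0.57, 0.60, 1.19 and 0.67 on days 0 to 4, -0.17 on day 6, and 0.77, 1.67, 1.67 and 1.303 on days 8 to 14. It was above 0 on every day other than day 6 and highest on days 10 and 12. It averaged 0.97 ± 0.50 (SD, n = 9 days), or 1.96-fold (limma adjusted p 0.000751). Sumf1, which generates the formylglycine residue that activates every sulfatase, was at 0.78 ± 0.20, and Sgsh, the heparan N-sulfatase that precedes Naglu in heparan sulfate breakdown, also at 0.78 ± 0.30. The sulfatide hydrolase Arsa followed at 0.63 ± 0.29. Galns, which acts on keratan sulfate, was at 0.40 ± 0.18 (limma adjusted p 0.00146), but with day 6 kept its mean was 0.29 and did not pass (limma adjusted p 0.0644).

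Ids (Gene ID 15931, chromosome X, 67596244 to 67618260, minus strand), the iduronate sulfatase, behaved otherwise. Its ratio was 0.72, 0.47, 0.067, 0.10 and 0.14 on days 0 to 4, -0.47 on day 6, and 0.31, -0.062, -0.38 and -0.41 on days 8 to 14. The early days lay above 0 and the last days below. The mean of 0.11 ± 0.37 did not pass (limma adjusted p 0.480). Over days 0 to 4 alone the mean was 0.30 and over days 8 to 14 alone it was below 0, at -0.14, and neither passed (limma adjusted p 0.104 and 0.520). The slope of the ratio is given below with the other courses.

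Of the 8 lipid hydrolases and cofactors 6 were higher and 2 did not pass, with a median of 0.58. Gm2a (Gene ID 14667, chromosome 11, 54911617 to 54926531, plus strand), the activator protein that presents ganglioside to beta-hexosaminidase, had the highest mean of all members. The ratio was 0.67, 1.21, 1.38, 2.00 and 1.41 on days 0 to 4, 0.074 on day 6, and 0.70, 1.58, 1.42 and 1.88 on days 8 to 14. It was above 0 throughout, least so on day 6, and it was the highest of the 38 members on days 1, 2, 3, 4 and 14. It averaged 1.36 ± 0.46 (SD, n = 9 days), or 2.57-fold (limma adjusted p 0.000106). Hexa, whose product works with this activator, was also higher, as given above.

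Galc, the galactosylceramidase of myelin lipids, stood at 0.92 ± 0.28 and the acid sphingomyelinase Smpd1 at 0.87 ± 0.15. The acid ceramidase Asah1 was at 0.62 ± 0.33, the acid lipase Lipa at 0.54 ± 0.35 and the sterol carrier Npc2 at 0.42 ± 0.30. Each of these 5 passed, with limma adjusted p-values from 2.33e-05 (Smpd1) to 0.00668 (Npc2). For Lipa and Npc2 the first days carried less of the difference: over days 0 to 4 alone the means were 0.34 and 0.25 and did not pass (limma adjusted p 0.104 and 0.181). The alpha-galactosidase Gla, at 0.20 ± 0.27 (limma adjusted p 0.0921), passed when day 0 was left out, with a mean of 0.25 (limma adjusted p 0.0399). Psap, the precursor of the saposins, was at 0.18 ± 0.18 and did not pass (limma adjusted p 0.0544), although an exact sign-flip permutation test, Benjamini-Hochberg adjusted over all genes, put it at 0.0209.

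All 4 genes of the next group, hydrolases of proteins and phosphates with progranulin, were higher, with a median of 0.62. Tpp1 (Gene ID 12751, chromosome 7, 112893334 to 112900738, minus strand), the tripeptidyl peptidase lost in a late infantile ceroid lipofuscinosis, had a ratio of 0.97, 0.73, 0.68, 0.90 and 1.18 on days 0 to 4, 0.089 on day 6, and 1.03, 0.88, 1.15 and 1.07 on days 8 to 14. Apart from day 6, where it was near 0, the days lay close together. It averaged 0.95 ± 0.17 (SD, n = 9 days), or 1.94-fold, and its limma adjusted p of 1.91e-05 was the lowest among the members. Ppt1, the palmitoyl protein thioesterase lost in an infantile form of the same disease, was at 0.71 ± 0.12, the acid phosphatase Acp2 at 0.54 ± 0.11 and Grn, the progranulin precursor, at 0.44 ± 0.26. The SDs of Acp2 and Ppt1 were the smallest of the 38 members. Over days 8 to 14 alone Grn, at 0.43, did not pass (limma adjusted p 0.0736).

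Of the 9 membrane proteins 8 were higher and 1 did not pass, with a median of 0.56. Npc1 (Gene ID 18145), the transporter that passes cholesterol on from Npc2, had a ratio of 1.08, 0.71, 1.19, 0.97 and 0.99 on days 0 to 4, 0.095 on day 6, and 0.55, 0.81, 0.54 and 1.11 on days 8 to 14. Every day lay above 0, day 6 by the least. It averaged 0.88 ± 0.24 (SD, n = 9 days), or 1.84-fold (limma adjusted p 7.14e-05). Scarb2, the receptor that carries glucocerebrosidase to the lysosome, was at 0.73 ± 0.17 and the tetraspanin Cd63 at 0.70 ± 0.37. The major membrane glycoproteins Lamp1 and Lamp2 were at 0.56 ± 0.15 and 0.52 ± 0.21. Cln3, lost in juvenile ceroid lipofuscinosis, was at 0.62 ± 0.22 and the acetyltransferase Hgsnat, which acts between Sgsh and Naglu, at 0.37 ± 0.21; over days 0 to 4 alone Hgsnat, at 0.32, did not pass (limma adjusted p 0.0712). The calcium channel Mcoln1, at 0.24 ± 0.18, was the smallest difference that passed (limma adjusted p 0.0172); over days 8 to 14 alone it was 0.10 and did not pass (limma adjusted p 0.413). The cystine transporter Ctns, at 0.24 ± 0.29, did not pass (limma adjusted p 0.0635) except when day 10 was left out, with a mean of 0.32 (limma adjusted p 0.0125), or when only genes of at least 256 normalized reads were tested (limma adjusted p 0.0490).

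The genes of heparan sulfate breakdown illustrate how far members of a single route differed. Naglu, Idua, Sgsh and Hgsnat were higher in the knockdown, Ids and Gusb did not pass, and their mean ratios ran from 0.11 (Ids) to 1.07 (Naglu). Of the members that act in sphingolipid breakdown, Gm2a, Galc, Smpd1, Hexa, Arsa, Asah1 and Neu1 were higher and Gla, Psap and Glb1 did not pass, with mean ratios from 0.12 (Glb1) to 1.36 (Gm2a). No test of the differences between members was run.

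The difference was present from the first day. The median ratio of the 38 members was 0.45, 0.50, 0.61, 0.68 and 0.60 on days 0 to 4 and 0.65, 0.61, 0.62 and 0.63 on days 8 to 14. The median of all genes lay between -0.024 and 0.011 on the same days. The fewest members above 0 on these days were counted on day 0, 32 of 38, and the most on days 2, 3 and 14, 37 of 38. At least 1.5-fold higher were 14 members on days 0 and 1 and between 19 and 22 on the other 7 days, where 17.3% to 22.3% of all genes were on the 9 days. The members' median was thus above 0 on day 0, at the SNM stage, which the paper calls partially differentiated. Day 0 is a single pair of libraries. Below 0 on that day were Manba, Gusb and 4 lipid genes, Npc2 (-0.27), Gla (-0.19), Asah1 (-0.13) and Lipa (-0.089). From day 2 on, day 6 aside, the median was higher than on day 0, at 0.60 to 0.68.

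Day 6 stood apart. The median ratio of the members was -0.073, with 15 of 38 above 0 and Idua, at 0.70, the single member that was at least 1.5-fold higher. Of the 38 members 27 (71.1%) had their lowest ratio of the 10 days on day 6, as 22.6% of all genes did. The members' steps into and out of day 6 differed between the lines. In the Control line the members' median step from day 4 to day 6 was 0.47, with 36 of 38 above 0, and the step from day 6 to day 8 was -0.28, with 30 below 0. In the knockdown line the step into day 6 was -0.14, with 26 below 0, and the step out of it 0.36, with 36 above 0. The median step of all genes lay between -0.013 and 0.0073 in these 4 comparisons. Between days 1 and 4 the members' median steps were -0.18 to -0.11 in the knockdown line and -0.18 to -0.14 in the Control line. In each line the largest median rise was at day 6, into it in Control and out of it in the knockdown. Whether the Control or the knockdown library of day 6 departed from its course was not tested. Cd63 showed the widest excursion, with Control steps of 1.98 and -1.47 and knockdown steps of -0.24 and 0.42, and a day 6 ratio of -0.995. Some marker lists took another sign on the same day and others did not. The median ratio of the proliferation list, between -1.56 and -0.58 on the other 9 days, was 0.53, and that of the pluripotency list, between -8.13 and -1.05 on those days, was also 0.53. The astrocyte list, above 0 on the other days, was at -0.62. The oligodendrocyte list stayed above 0, at 1.41 with 14 of 14 genes above 0, and the neuron list stayed below 0, at -1.45. A single day has no replicate and was given no test, and the part of these markers in the members' values was not tested.

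In the steps between neighbouring days that do not involve day 6, the median over the members had the same sign in both lines. From day 1 to day 2 their median step was -0.18 in Control, with 29 of 38 below 0, and -0.14 in the knockdown, with 28 below 0. From day 2 to day 3 it was -0.16 and -0.11, with 31 and 29 below 0, and from day 3 to day 4 it was -0.14 and -0.18, with 26 and 31 below 0. Over these 3 steps most lysosomal transcripts thus had lower values at the later day in both lines. The last step, from day 12 to day 14, went the other way, at 0.19 in Control and 0.28 in the knockdown, with 30 of 38 above 0 in each. Between day 0 and day 1 the median step was 0.062 in Control and 0.21 in the knockdown, from day 8 to day 10 it was 0.12 and 0.065, and from day 10 to day 12 it was 0.022 and 0.072. The median step of all genes lay between -0.014 and 0.015 in these comparisons. Each step compares 2 libraries and has no replicate check. The steps of days 3 to 4 are less certain. The tables that join these days added up within 1e-05 for 0.0294% of genes, against 90.4% to 92.0% for the other neighbouring days.

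**Figure D2:**
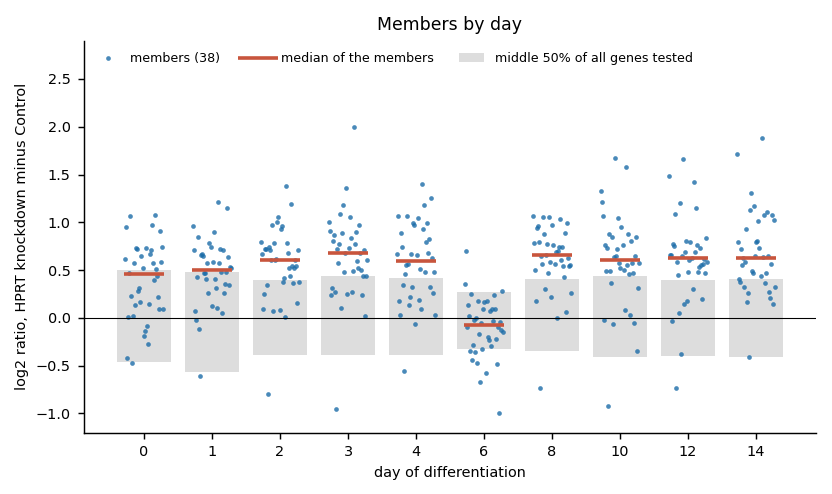
Log2 ratio (HPRT knockdown minus Control, y axis) by day of differentiation; each dot is a member, the red bar is the median of the 38 members and the grey box spans the middle 50% of all genes tested. The red bars lie between 0.45 and 0.68 on 9 days and at -0.073 on day 6.

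Changes with time were compared next, as slopes on day. The slope of the ratio, which tests whether the difference between the lines moved with day, was rising by limma for 3 of 38 members (7.43% of all genes) and falling for 1 (6.61% of all genes). Rising were Arsb at 0.079 per day (SE 0.021, limma adjusted p 0.0387), Naglu at 0.067 (SE 0.013, limma adjusted p 0.0160) and Man2b1 (Gene ID 17159, chromosome 8, 87607168 to 87622638, plus strand) at 0.059 (SE 0.016, limma adjusted p 0.0406), and Ids was falling at -0.061 (SE 0.016, limma adjusted p 0.0355). The ratio of Man2b1 was 0.23, -0.12, 0.34, 0.27 and 0.34 on days 0 to 4, 0.25 on day 6, and 0.80, 0.73, 1.09 and 0.63 on days 8 to 14. It was higher on each of the last 4 days than on any earlier one. These 4 calls depended on single days. Naglu did not pass without day 12 or day 14 (limma adjusted p 0.0546 to 0.0677), Ids without day 0, 1, 4, 10, 12 or 14 (0.0542 to 0.116), Arsb without day 0, 1, 2, 4, 10, 12 or 14 (0.0539 to 0.116) and Man2b1 without day 0, 1, 2, 3, 4, 8, 10 or 12 (0.0566 to 0.121). The slopes themselves stayed between 0.059 and 0.066 for Naglu, -0.062 and -0.051 for Ids, 0.070 and 0.099 for Arsb and 0.049 and 0.063 for Man2b1 in these fits. With day 6 kept none of the 4 passed by limma, although their slopes were as before, since day 6 is the mean of the 9 days; at an unadjusted p under 0.05 7 members were rising and 1 was falling in that fit. For 34 members the limma slope did not pass.

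Within the Control line, where consecutive tables were joined, limma called 4 members rising (19.7% of all genes) and 1 falling (23.9% of all genes). Ids rose by 0.086 per day (SE 0.014), Gaa by 0.074 (SE 0.019), Scarb2 by 0.033 (SE 0.011) and Ctns by 0.024 (SE 0.0071), with limma adjusted p-values from 0.00183 to 0.0348, while Gusb fell by 0.056 per day (SE 0.014, limma adjusted p 0.00975). Without day 14 Gaa was at 0.056 and did not pass (limma adjusted p 0.0774), nor did Scarb2 without day 2, 3, 10, 12 or 14 (limma adjusted p 0.0558 to 0.161) or Ctns without day 10 or 14 (0.0536 to 0.0711). Over the 9 leave-outs the Control count was highest without day 1 (10 members) and day 0 (8) and lowest without day 10 (3). In the knockdown line 5 members were rising (7.6% of all genes) and 0 falling (5.53% of all genes), and 0 fell at an unadjusted p under 0.05 either. The 5 were Arsb at 0.15 per day (SE 0.032), Lipa at 0.089 (SE 0.017), Manba at 0.076 (SE 0.018), Arsa at 0.075 (SE 0.018) and Man2b1 at 0.059 (SE 0.010), with limma adjusted p-values from 0.0123 to 0.0338. Without day 14 none of these 5 passed by limma (6 members were rising at an unadjusted p under 0.05), and the count over all genes fell from 1786 to 171. Without day 2, 10 or 12 2 of the 5 passed, without day 3 3 of them did, and without day 0 8 members did. The limma slope of the ratio itself passed for Arsb and Man2b1 among them, and not for Lipa (adjusted p 0.0672), Manba (0.452) or Arsa (0.239).

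**Figure D3:**
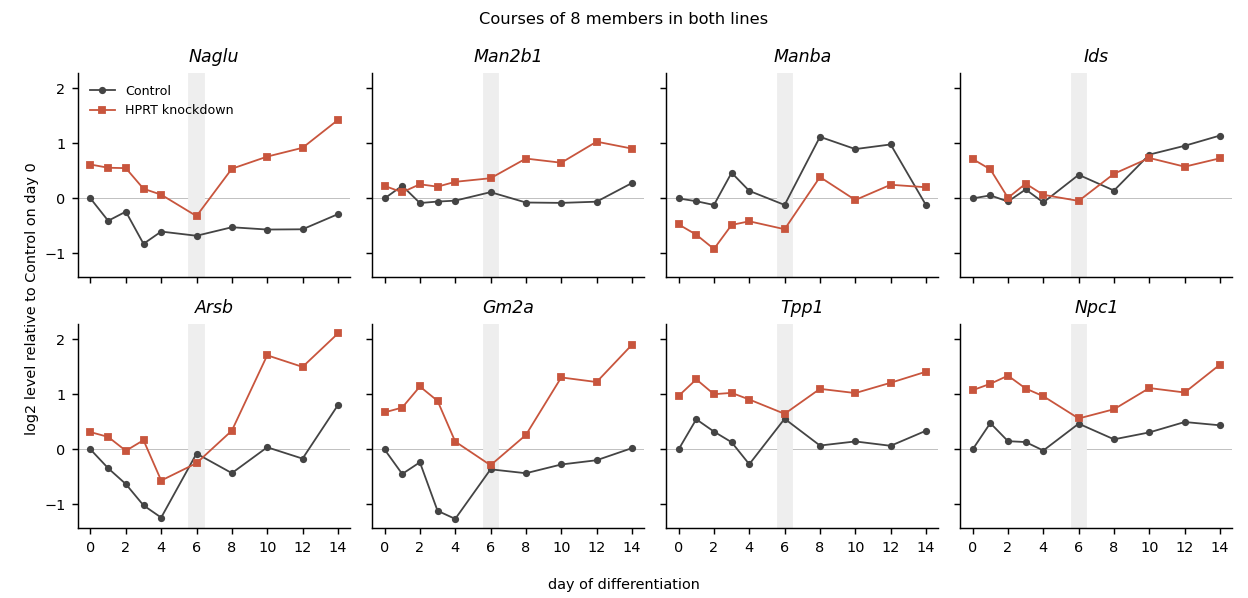
Joined log2 levels of 8 members relative to Control on day 0 (y axis) by day (x axis), Control as grey circles and HPRT knockdown as red squares, 1 library per point; the shaded day is day 6. The lines of Arsb, Gm2a, Tpp1 and Npc1 are nearest on day 6, and those of Manba cross between days 12 and 14.

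The joined courses give the levels of the 4 genes whose ratio slope passed, on day 14 relative to day 0 of the same line. Naglu stood at -0.29 in Control and at 0.87 in the knockdown, Arsb at 0.80 in Control and 1.81 in the knockdown, and Man2b1 at 0.28 in Control and 0.65 in the knockdown. Ids, whose ratio was falling, was at 1.14 in Control and -0.054 in the knockdown. The courses of the members' ratios were not alike in detail. Pearson's r of a member's ratio with the median of the other 37 over 9 days, points that share a pair of libraries and a table on each day, ranged from -0.693 for Ids to 0.769 for Hexa and was above 0 for 27 of 38.

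Other genes of the lysosome were described from lists by their counts. Of all genes tested 26.2% were higher and 26.3% lower by limma. Of 23 other soluble hydrolases tested, 18 were higher and 0 lower by limma, with a median ratio of 0.51; the arylsulfatase Arsg stood at 1.29 ± 0.44 and the acid amidase Naaa at 1.22 ± 0.66. Among 9 cathepsins 7 were higher, with a median of 0.60, led by Ctso at 1.47 ± 0.44 and Ctsc at 1.19 ± 0.63. Of 24 other membrane proteins 13 were higher, with a median of 0.37, with the sialin gene Slc17a5 at 1.08 ± 0.24 and Tmem106b at 0.85 ± 0.17. Of 17 subunits of the vacuolar ATPase, which acidifies the lysosome, 11 were higher, with a median of 0.28, with Atp6v0e2 at 1.06 ± 0.47 and Atp6v0e at 0.78 ± 0.72. In these 4 lists 0 genes were lower by limma after adjustment, and at an unadjusted p under 0.05 1 of the other membrane proteins was. The differences between these lists and the members were not tested.

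For genes that act before the lysosome the counts are set beside those of all genes tested, of which 26.2% were higher and 26.3% lower. Of 14 genes of mannose 6-phosphate sorting 5 (35.7%) were higher and 3 lower, near the shares of all genes, with a median of 0.045. Gnptg, the gamma subunit of the enzyme that adds the tag, was at 0.88 ± 0.24 and the adaptor subunit Ap1s2 at 0.68 ± 0.20. Of 25 autophagy genes 13 (52%) were higher and 2 lower, with a median of 0.19. Wipi1 at 0.91 ± 0.43 and Map1lc3b at 0.48 ± 0.23 differed most. Of 21 lysosomal transcription factors and their regulators 13 were tested. Among these 4 (30.8%) were higher, near the share of all genes, and 1 lower, with a median of 0.12. Mitf, which belongs to the family that binds E-boxes of lysosomal genes, was at 1.04 ± 0.47 (limma adjusted p 0.000417) at a level between 16 and 256 normalized reads, and Rragd, a GTPase that recruits this family to the lysosome, at 0.58 ± 0.23 (limma adjusted p 0.000423). Tfeb, Tfe3 and Tfec were not analysed here.

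The members with CACGTG can be set beside those without. Among the 10 with it 8 were higher and 2 (Gla and Glb1) did not pass, with a median mean ratio of 0.63. Of the 23 matched members without it 18 were higher, 1 was lower and 4 did not pass, with a median of 0.59. Gm2a, Arsb and Tpp1 belong to the second set. Their windows do not hold these letters, and the difference between the sets was not tested.

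Marker lists of cell types also differed between the lines, where 26.2% of all genes were higher and 26.3% lower. Of 14 oligodendrocyte genes 7 were higher and 0 lower by limma, with a median of 2.02; Olig2 was at 3.02 ± 1.44 and Gpr17 at 2.77 ± 3.24. Of 10 astrocyte genes 8 were higher and 1 lower, with a median of 1.12, S100b at 3.63 ± 3.22 and Aldoc at 1.60 ± 0.60. Both glial lists were thus higher. Of 13 neuron genes 8 were lower, with a median of -1.21, Nefl at -2.85 ± 1.301 and Ina at -2.79 ± 1.37. Of 12 proliferation genes 11 were lower, with a median of -0.99, among them Bub1 at -1.40 ± 0.53 and Mcm3 at -1.36 ± 0.39. All 10 pluripotency genes were lower, with a median of -2.64, Zfp42 at -3.43 ± 2.67 and Tdgf1 at -3.38 ± 2.40.

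The remaining lists held fewer genes past the threshold. Among all genes 26.2% were higher and 26.3% lower. Of 10 neural progenitor genes 3 were higher and 2 lower (Pax6 at -1.36 ± 0.74, Hes5 at -0.99 ± 1.02). Of 15 fibroblast genes 1 was higher (Pdgfra at 0.73 ± 0.69) and 3 were lower (Lum at -1.07 ± 1.15 furthest). Pdgfra was also counted in the oligodendrocyte list. Of 8 endoderm genes 1 was higher (Foxa1 at 2.77 ± 0.75) and 1 lower (Sox17 at -1.89 ± 2.40). Of 16 macrophage and microglia genes 14, Ptprc, Csf1r, Itgam, Aif1 and Tyrobp among them, lay under the filter; Tmem119, the one tested, was at 1.02 ± 1.28. By day the oligodendrocyte list had median ratios of -0.49, -0.17, -0.84, 3.08 and -0.17 on days 0 to 4 and of 2.54, 4.89, 3.26 and 4.58 on days 8 to 14. It was thus below 0 on 4 of the first 5 days and above 0 on day 3 and on the last 4 days. The astrocyte list was above 0 on each of the 9 days, between 0.43 and 1.64, and the neuron list below 0, between -0.25 and -2.44. The part of these cell types in the members' difference was not tested, and the tables, which hold ratios, give no summed level per line.

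**Figure D4:**
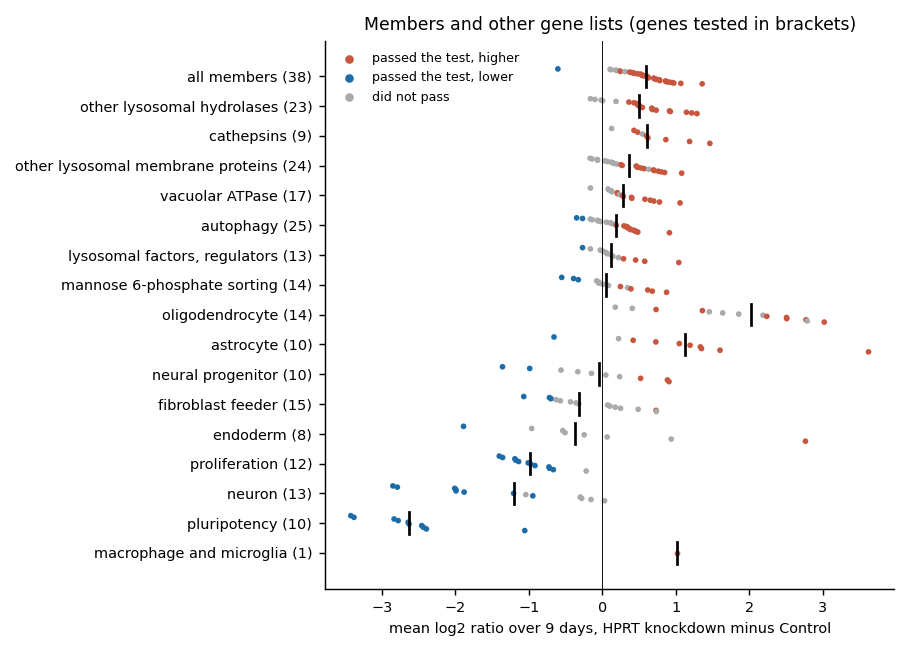
Mean log2 ratio over 9 days (HPRT knockdown minus Control, x axis) of each gene in the list of members and in 16 other lists (y axis); red dots were higher and blue dots lower by limma, grey dots did not pass, and black bars are medians. The medians of the members, of the other hydrolases and of the cathepsins lie at 0.60, 0.51 and 0.60, and those of the neuron, proliferation and pluripotency lists below 0.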

How the data were processed

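Per the study's methods, reads were aligned by ELAND in CASAVA 1.8.2 to NCBI37/mm9 and the authors normalized gene counts by DESeq in Avadis NGS. The authors deposited 28 tables of log2 values, each with 2 libraries from which the authors had subtracted their mean, so that a table gives ratios and no levels: 10 pair the lines on a day and 9 per line pair consecutive days. Normalization was separate in each table. The lane of each library and the strand setting were not given in the sources used here. Level classes were read from the rounding step of the single-precision values, and genes whose typical log2 normalized count reached 4 (16 reads) were tested. Per-day ratios of 9 days were tested with limma 3.58.1 (R 4.3.3), intercept only, and slopes on day were fitted to the ratios and to values joined from consecutive tables. All p-values were two-sided and Benjamini-Hochberg adjusted over 13608 genes at 0.05. The exact sign-flip test over 9 days has 0.00390625 as its smallest p. Scripts were tested on simulated data. Libraries of a day were paired because both lines were collected on it; across genes, deviations from the line means had an r of 0.131 to 0.412 on 8 days and of -0.032 on day 0. Around loops of 4 tables the values of a gene should add up. Outside the loop of days 3 and 4, Gusb (0.199) was the single member with a residual above 0.1. In the loop of days 3 and 4 0.0294% of genes closed within 1e-05, and this loop was left out of the residuals of single genes. Alternatives were other filters, centring, day 6 kept, each day left out, days 0 to 4 or 8 to 14 alone (the last pair added after seeing the data), unpaired fits, slopes on log2(day + 1) and another route for the Control step of days 3 to 4. The members and gene lists were chosen with earlier results of these data known. Named genes with daily values were the member with the largest mean ratio past the threshold in each role, every member that was lower, the members with the steepest slopes past the threshold, and Hprt; of the other lists the 2 genes past the threshold with the largest mean ratio were named.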

Additional observations from a re-analysis of the deposited data

Results flagged for a closer look

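In 38 members and their median, 39 series in all, the 10 days were searched for a day far from the others by Dixon's criterion, by which chance sets apart about 1 in 20 series. Of the members 14 had such a day, 13 of them on day 6. On day 6 the log2 ratio of HPRT knockdown over Control was -0.34 for Gaa, -0.021 for Neu1, -0.67 for Galns, -0.049 for Sumf1, -0.33 for Galc, -0.57 for Smpd1 and -0.30 for Ppt1. It was 0.089 for Tpp1, -0.032 for Acp2, -0.22 for Lamp1, -0.48 for Lamp2, -0.995 for Cd63 and -0.048 for Scarb2, and the median of the members was -0.073. Each of these lay below the other 9 days. The members share the libraries of a day, so these values are not independent of each other. Hprt was at -3.42 on that day, lower in the library labelled knockdown as on the other days. The other member was Manba, at 0.32 on day 14, above its other days.

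The slope of the ratio, a difference between the lines in their change over time, passed by limma for 4 members. It was 0.067 per day for Naglu, 0.059 for Man2b1, -0.061 for Ids and 0.079 for Arsb. Over all genes 7.43% were rising and 6.61% falling, against 3 and 1 of the 38 members. With day 6 kept, or without day 12, none of the 4 passed by limma. At an unadjusted p under 0.05 7 members were rising and 1 was falling in either fit.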

How the results depend on the processing

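Leaving out each day in turn gave 31 to 33 members higher and 1 lower in the knockdown, with 6254 to 7265 genes called in all; the slope of the ratio passed for 605 to 1657 genes and 0 to 4 members, the Control slope for 4621 to 6267 genes and 3 to 10 members, and the knockdown slope for 171 to 2959 genes and 0 to 8 members. The fewest genes passed without day 12 for the slope of the ratio and the Control slope, and without day 14 for the knockdown slope; the fewest members passed without day 12, day 10 and day 14, respectively. Over days 8 to 14 alone 4377 genes passed in place of 7141, with 29 members higher and 0 lower by limma (31 and 0 at an unadjusted p under 0.05), and over days 0 to 4 alone 27 members were higher; fewer days were used in both. With day 6 kept, the slope of the ratio passed by limma for 1066 genes and 0 members (8 at an unadjusted p under 0.05). On log2(day + 1) the Control slope passed for 3929 genes and 2 members and the knockdown slope for 127 genes and 0 members (7 at an unadjusted p under 0.05). With the Control step of days 3 to 4 taken through the knockdown tables, the Control slope passed for 9 members in place of 5. For day 6 kept, log2(day + 1) and this step the cause was not tested. Without the pairing by day (no replicate block) 5699 genes passed, and the same 31 members were higher and the same 1 lower; leaving the pairing out changed no call of a member. Over all alternatives the members' own differences between the lines kept direction and side of the threshold in 660 fits, gained the threshold in 8, lost it in 9 and changed sign in 1, that of Ids over days 8 to 14 (-0.14), which passed in neither fit and was below 0 on 3 of those 4 days. Among the 11 members with a called slope, slopes that did not pass changed sign on leaving out a day: the slope of the ratio ranged from -0.017 to 0.041 for Manba and from -0.0024 to 0.023 for Scarb2, the Control slope from -0.027 to 0.0042 for Naglu and from -0.011 to 0.011 for Man2b1 (-0.0014 on log2(day + 1)), and the knockdown slope from -0.0079 to 0.020 for Gusb. For the other 27 members 87 of 1146 slope fits changed sign, each with a limma adjusted p above the threshold. Depth was unknown, and members under 256 normalized reads are measured with the least precision.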
